A study of Mus musculus with 15 samples.

Results

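Macrophage and monocyte markers were followed in irradiated mouse submandibular glands as 39 genes, chosen by symbol. Of these, 19 are pan-myeloid genes that most macrophages and several other leukocytes express, 9 mark tissue-resident macrophages, 4 mark monocytes and the cells that derive from them, and 7 mark lipid-associated and scavenging macrophages. All 39 were among the 21013 gene symbols counted, and 37 were among the 16042 that passed a filter on low counts. The resident marker Vsig4, a complement receptor, had 0 to 2 counts in a library and the scavenger receptor Marco had 0 to 11, so neither was tested. Bulk RNA of submandibular glands, salivary glands under the jaw, was sequenced from male wildtype C57BL/6 mice aged 8 to 10 weeks, with 3 libraries in each of 5 groups. IR_iEV_30d glands had 15 Gy of radiation to the gland region and weekly injections of iEVs into the gland from day 1, and were taken 30 days after irradiation. IR_30d glands had the same dose without iEVs and were taken on day 30. IR_iEV_4d and IR_4d glands were the matching pair taken on day 4, and NT glands came from nontreated mice. The labels do not spell out iEV, but the series title speaks of extracellular vesicles from mesenchymal stem cells. No group was injected without vesicles and none had vesicles without radiation, so injection and vesicles cannot be told apart. The day on which NT glands were taken is not given in the labels. They do not say whether each library came from its own mouse, so p-values measure the spread between these libraries, which may be technical.

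Tissue macrophages depend on the receptor encoded by Csf1r and on the transcription factor PU.1, encoded by Spi1. Some settle in a tissue early and renew there, and genes such as Timd4, Lyve1 and Folr2 are used to mark them. Others arrive as blood monocytes, which use the chemokine receptor encoded by Ccr2 to leave the bone marrow and enter injured tissue and carry the surface protein encoded by Ly6c2. Salivary glands hold resident macrophages between the acini and ducts. In RNA of a whole gland, fewer cells of a type and less RNA per cell cannot be told apart.

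The 250 bases before the start of 5 of the markers, all of them higher in IR_30d than in IR_4d glands, are shown because these genes carry the difference between the days given below. They come from RefSeq promoters of build GRCm38.p6, in which 30 of the 39 markers had an entry, and are written 5′ to 3′ on the gene's strand. Capitals mark GAGGAA, the core letters of a PU.1 site, and GAAA, any 2 bases and GAAA, a spacing bound by interferon regulatory factors. They lie at chr3:95526536-95526785 (+) for Ctss, chr19:12460520-12460769 (+) for Mpeg1, chr7:128129300-128129549 (+) for Itgax, chr6:129472780-129473029 (-) for Clec7a and chr9:124101933-124102182 (+) for Ccr2.
Ctss: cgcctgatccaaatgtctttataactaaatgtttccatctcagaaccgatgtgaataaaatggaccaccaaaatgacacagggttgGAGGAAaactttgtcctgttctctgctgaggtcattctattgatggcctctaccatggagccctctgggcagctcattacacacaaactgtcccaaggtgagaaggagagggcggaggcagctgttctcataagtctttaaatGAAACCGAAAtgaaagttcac
Mpeg1: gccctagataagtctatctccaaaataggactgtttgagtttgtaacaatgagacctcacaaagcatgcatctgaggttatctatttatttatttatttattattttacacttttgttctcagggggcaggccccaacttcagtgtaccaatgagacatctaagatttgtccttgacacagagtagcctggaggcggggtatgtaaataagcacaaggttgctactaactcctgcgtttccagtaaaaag
Itgax: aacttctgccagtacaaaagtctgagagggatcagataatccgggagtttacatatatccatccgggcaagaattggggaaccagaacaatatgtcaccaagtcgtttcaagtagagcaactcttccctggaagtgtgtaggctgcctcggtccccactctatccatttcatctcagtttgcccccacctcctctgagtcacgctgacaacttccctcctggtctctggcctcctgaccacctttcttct
Clec7a: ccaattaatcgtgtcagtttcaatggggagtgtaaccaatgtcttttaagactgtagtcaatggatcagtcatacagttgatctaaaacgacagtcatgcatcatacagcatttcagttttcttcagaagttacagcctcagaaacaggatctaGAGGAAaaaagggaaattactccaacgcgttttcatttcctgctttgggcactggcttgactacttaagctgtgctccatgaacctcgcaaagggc
Ccr2: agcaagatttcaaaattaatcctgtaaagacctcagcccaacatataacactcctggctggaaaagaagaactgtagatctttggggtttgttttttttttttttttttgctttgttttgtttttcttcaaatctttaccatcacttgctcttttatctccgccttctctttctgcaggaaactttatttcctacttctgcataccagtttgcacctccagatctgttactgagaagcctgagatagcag
In Ctss, GAGGAA stands 164 to 159 bases and the spaced GAAA pair 21 to 12 bases before the start, and in Clec7a GAGGAA stands 96 to 91 bases before it. The windows of Mpeg1, Itgax and Ccr2 hold neither, which says only that these letters are not in this window. Searched on both strands, GAGGAA was in the window of 16 of the 30 markers (53.3%) and of 25.9% of 27025 genes. The longer GAGGAAGT, which contains GAGGAA, was in 1 marker, Ly6c2 (3.33%), and in 2.79% of genes. The spaced GAAA pair, added with the data in view, was in Aif1, Ctss and Cybb (10% of 30 markers) and in 3.46% of genes. These shares are a description, and a match is not evidence of binding.

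Libraries held 29082798 to 52201098 counts, of which the 10 most abundant genes took 39.9 to 50.4%. Levels are given as CPM, counts scaled to the size of the library after adjustment by the trimmed mean of M-values (TMM). Products of the sublingual gland, which lies against the submandibular gland, separated libraries of the same group. Their mean log2 CPM was 1.13, 9.40 and 1.52 in IR_iEV_30d glands, 0.894, 3.20 and 0.914 in IR_30d glands, 3.55, 9.15 and 9.67 in IR_iEV_4d glands, 10.3, 9.18 and 3.64 in IR_4d glands and 7.83, 0.474 and 0.205 in NT glands. The sublingual product Muc19 was at 109 to 764 CPM in the 6 libraries above a level of 5. It was only at 0.172, 0.524 and 1.01 CPM in IR_30d replicate 2, IR_iEV_4d replicate 1 and IR_4d replicate 3, whose middle levels rest on other genes of the list. On this mean level all 6 day 4 libraries were above 2 of the 3 NT libraries. Calls are also given without the 6 libraries above a level of 5 (IR_iEV_30d replicate 2, IR_iEV_4d replicates 2 and 3, IR_4d replicates 1 and 2 and NT replicate 1). The part of sublingual tissue in the marker values was tested only by leaving these out or by a covariate. Parotid gland products had a mean log2 CPM of 5.99 to 10.3 in IR_4d and 8.95 to 10.4 in IR_iEV_4d libraries. They were at 3.56 to 5.50 in NT, 5.11 to 7.69 in IR_30d and 4.49 to 9.01 in IR_iEV_30d libraries. IR_4d replicate 3, kept when the 6 are left out, was at 8.08. The list of parotid products also holds Prol1, which is listed here among submandibular acinar genes too. The list summed to 54279 to 74168 CPM in NT and 57935 to 62098 CPM in IR_4d libraries. Its level therefore cannot be read as parotid tissue alone, and the part of that tissue in the marker values was not tested. IR_iEV_30d replicate 3 also stood apart: of the 37 tested markers 13 were above and 13 below every NT library, while 27 and 30 were above every NT library in IR_iEV_30d replicates 1 and 2. Per kilobase of exon, Apoe was the most abundant marker in both IR_30d and NT glands (174 and 112 CPM per kb), followed by Lyz2 (49.5 and 25.3) and Ctss (34.9 and 16.3).

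The markers were higher 30 days after irradiation and, in part, lower on day 4. In IR_30d against NT glands, edgeR's quasi-likelihood test with Benjamini-Hochberg adjustment over all genes called 20 of 37 markers higher and 0 lower at an adjusted p of 0.05 (31 at an unadjusted p under 0.05, and 22 higher and 0 lower with both DESeq2 and limma-voom), where it called 3.19% of all genes higher and 1.29% lower. The median log2 change of the markers was 0.87, beside 0.00 over all genes tested. Groups did not overlap, with IR_30d above NT, in 30 of 37 markers and in 12.6% of all genes. Markers of other cell types also stood apart there: those of ducts summed to 91535 to 94469 CPM in IR_30d glands and 43862 to 57102 CPM in NT glands, with 4 of 7 higher and 1 lower, and those of fibroblasts to 541 to 558 CPM in IR_30d glands and 697 to 755 CPM in NT glands, with 4 of 7 lower. The part of these cell types in the marker values was not tested. In IR_4d against NT glands 5 of 37 markers were lower and 0 higher (12 at an unadjusted p under 0.05, and 5 lower with DESeq2 and 1 with limma-voom), where 0.561% of all genes were lower and 0.835% higher. The median was -0.20, and IR_4d was below NT without overlap in 13 markers, against 9.31% of all genes. Between the days, IR_30d against IR_4d glands, 24 markers were higher and 0 lower (29 at an unadjusted p under 0.05, and 27 higher with DESeq2 and 24 with limma-voom), with 4.81% of all genes higher and 1.99% lower, and a median of 0.87. These 3 comparisons share groups, so their counts are not independent of one another.

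**Figure D1:**
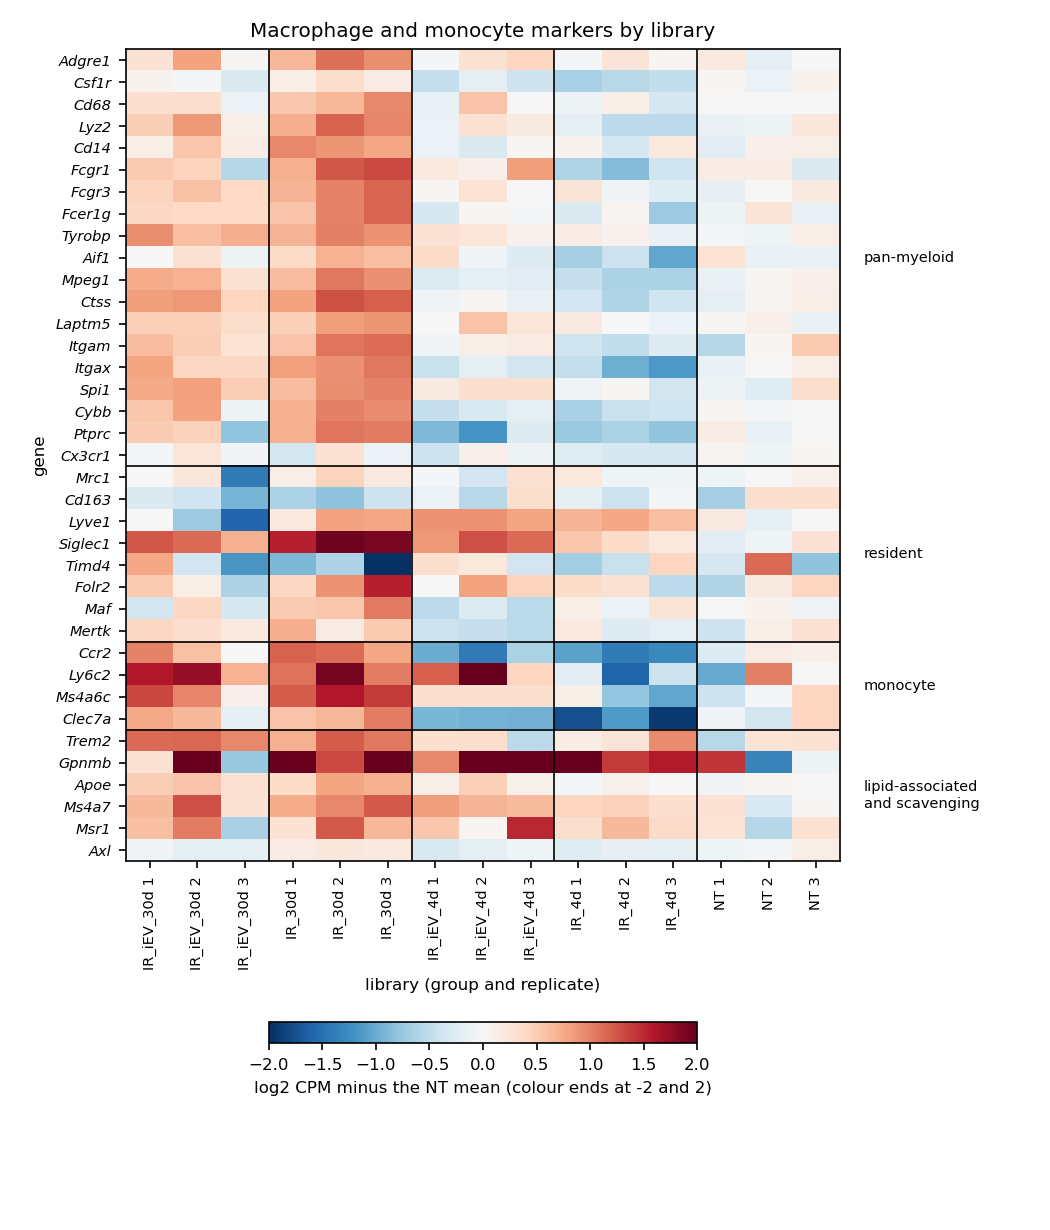
Log2 CPM of the 37 tested markers (rows, by class) in each of the 15 libraries (columns), minus the mean of the 3 NT libraries; red is higher and blue lower, and the colour ends at -2 and 2. The 3 IR_30d columns are red in most pan-myeloid and monocyte rows, IR_iEV_30d replicate 3 is paler or blue in several of them, and Csf1r, Ccr2 and Clec7a are blue in the IR_4d columns.

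Among pan-myeloid genes, Csf1r, the receptor for the growth factors CSF1 and IL-34, separated the days in glands without iEVs. Csf1r stood at 41.9, 39.3 and 32.5 CPM in IR_iEV_30d glands, 43.6, 50.7 and 44.6 CPM in IR_30d glands, 28.7, 35.1 and 29.8 CPM in IR_iEV_4d glands, 25.3, 27.2 and 28.4 CPM in IR_4d glands and 40.8, 36.9 and 42.0 CPM in NT glands. All 3 IR_4d libraries were below all 3 NT libraries, and those of IR_30d were above them. The log2 change (± SE) in IR_4d against NT glands was -0.57 ± 0.11 (adjusted p = 0.00891), while the value for IR_30d against NT glands was 0.21 ± 0.11 (adjusted p = 0.333), which did not pass. In IR_30d against IR_4d glands Csf1r was higher by 0.78 ± 0.11 (adjusted p = 0.000309). Adgre1, which encodes the macrophage surface protein F4/80, stood at 10.3, 14.7 and 8.55 CPM in IR_iEV_30d glands, 13.3, 18.2 and 16.1 CPM in IR_30d glands, 8.22, 10.4 and 11.3 CPM in IR_iEV_4d glands, 8.28, 10.1 and 8.63 CPM in IR_4d glands and 9.65, 7.33 and 8.43 CPM in NT glands. All 3 IR_30d libraries were above every NT library, while those of the other groups overlapped with NT. Adgre1 rose in IR_30d against NT glands (0.91 ± 0.18, adjusted p = 0.00791), a call lost without IR_30d replicate 2 (adjusted p = 0.0525).

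Several pan-myeloid genes of phagocytic and lysosomal function rose on day 30. Ctss, a lysosomal protease with a role in antigen presentation, stood at 39.3, 40.1 and 29.7 CPM in IR_iEV_30d glands, 38.6, 53.4 and 50.3 CPM in IR_30d glands, 21.0, 22.5 and 19.9 CPM in IR_iEV_4d glands, 16.9, 14.5 and 16.8 CPM in IR_4d glands and 19.4, 23.0 and 23.9 CPM in NT glands. Ctss was higher in every IR_30d and IR_iEV_30d library than in any NT library, and lower in every IR_4d library. The log2 change was 1.10 ± 0.13 (adjusted p = 9.17e-05) in IR_30d against NT glands and -0.46 ± 0.13 (adjusted p = 0.116) in IR_4d against NT glands, where it did not pass. Mpeg1, which encodes the pore-forming protein perforin-2, stood at 47.1, 45.8 and 35.0 CPM in IR_iEV_30d glands, 43.3, 59.0 and 53.5 CPM in IR_30d glands, 23.4, 24.9 and 24.4 CPM in IR_iEV_4d glands, 20.4, 18.2 and 18.3 CPM in IR_4d glands and 25.8, 29.0 and 30.4 CPM in NT glands. Like Ctss it ordered the groups without overlap as IR_30d above NT above IR_4d. Mpeg1 rose by 0.87 ± 0.12 (adjusted p = 0.000383) in IR_30d against NT glands and changed by -0.58 ± 0.12 (adjusted p = 0.0204) in IR_4d against NT glands. Cybb, a subunit of the oxidase that makes superoxide in phagocytes, stood at 16.2, 19.2 and 10.3 CPM in IR_iEV_30d glands, 18.2, 22.1 and 21.2 CPM in IR_30d glands, 7.99, 8.88 and 9.74 CPM in IR_iEV_4d glands, 6.98, 8.09 and 8.36 CPM in IR_4d glands and 11.3, 10.7 and 11.1 CPM in NT glands. Cybb rose in IR_30d against NT glands (0.89 ± 0.17, adjusted p = 0.00422) and was lower in all IR_4d libraries than in NT without passing (-0.50 ± 0.17, adjusted p = 0.219). Cd14, a receptor for bacterial lipopolysaccharide, and Lyz2, lysozyme of myeloid cells, rose in IR_30d against NT glands by 0.86 ± 0.14 and 0.96 ± 0.18. The lysosomal membrane genes Laptm5 and Cd68 rose by 0.74 ± 0.13 and 0.74 ± 0.19 (log2, ± SE).

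Itgax, which encodes the integrin CD11c of dendritic cells and some macrophages, moved in both directions. Itgax stood at 8.83, 6.76 and 6.81 CPM in IR_iEV_30d glands, 9.03, 9.61 and 10.6 CPM in IR_30d glands, 3.73, 4.48 and 3.92 CPM in IR_iEV_4d glands, 3.64, 2.57 and 2.27 CPM in IR_4d glands and 4.64, 5.09 and 5.57 CPM in NT glands. All IR_4d values were below and all IR_30d values above those of NT glands. The changes were -0.85 ± 0.18, adjusted p = 0.0218 in IR_4d against NT glands and 0.93 ± 0.17 (adjusted p = 0.00400) in IR_30d against NT glands. The other integrin, Itgam (CD11b), rose on day 30 (0.87 ± 0.22), as did the Fc receptors Fcgr1 and Fcgr3 (1.13 ± 0.29 and 0.95 ± 0.17) and the signalling adaptors Fcer1g and Tyrobp (0.93 ± 0.20 and 0.87 ± 0.15). Spi1 rose by 0.83 ± 0.19. Of the 19 pan-myeloid genes 15 rose in IR_30d against NT glands, and Csf1r, Aif1, Ptprc and Cx3cr1 did not pass with edgeR. Ptprc was called higher there by DESeq2 (0.95, adjusted p = 0.00926) and by limma-voom (0.94, adjusted p = 0.0436). Cx3cr1, the fractalkine receptor of long-lived and patrolling cells, had a log2 change of -0.04 ± 0.16 (SE; 95% interval by normal approximation -0.35 to 0.27). In IR_30d against IR_4d glands 18 of 19 rose, and Cx3cr1 was again the one that did not pass (0.27 ± 0.16, adjusted p = 0.384).

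Of the 20 calls in IR_30d against NT glands, 11 were kept whichever single library was left out, and 9 were lost without at least 1. The 9 were Adgre1, Cd68, Fcgr1, Fcer1g, Itgam, Spi1, Ccr2, Ms4a6c and Ms4a7 (adjusted p up to 0.173). Without IR_30d replicate 2 the count of calls was 12, without IR_30d replicate 3 it was 13 and without NT replicate 2 it was 14. Lyz2, Cd14, Ctss, Laptm5 and Siglec1 kept their call in every alternative run. Of the 20, 6 lost it without the 6 libraries high in sublingual products (Cd68, Fcgr1, Itgam, Spi1, Ccr2 and Ms4a6c). Without every library above a sublingual level of 2, which keeps 6 libraries in all, the count was 7. All 5 calls in IR_4d against NT glands were lost without NT replicate 3, and the count was 1 without IR_4d replicate 3, 2 without IR_4d replicate 2 and 3 without NT replicate 2. It was also 0 without those 6 libraries, where IR_4d keeps 1 library that is assumed to vary like the others. The log2 changes there were -0.49 for Csf1r, -0.71 for Mpeg1, -1.25 for Itgax, -1.46 for Ccr2 and -2.12 for Clec7a.

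**Figure D2:**
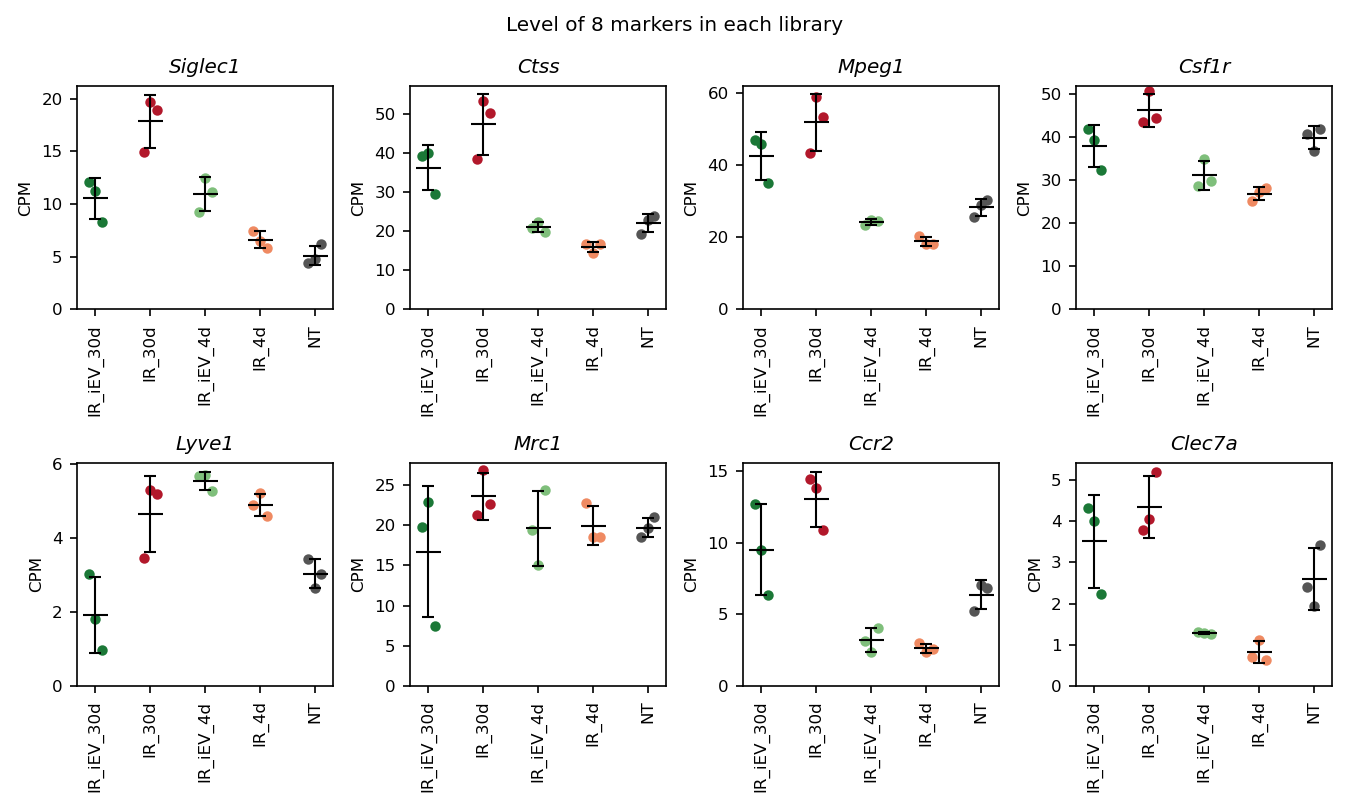
CPM of 8 markers in each library (points), with the group mean (long tick) and SD (bars, n = 3), from IR_iEV_30d at the left to NT at the right. Siglec1, Ctss and Mpeg1 have their highest mean in the IR_30d group, Ccr2 and Clec7a their lowest means in the day 4 groups, and Mrc1 lies at 15.0 to 26.8 CPM in every library except IR_iEV_30d replicate 3 (7.46 CPM).

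Among markers of resident macrophages, Siglec1 alone was called in IR_30d against NT glands by edgeR. Siglec1, a sialic acid receptor of resident macrophages that type I interferon is known to induce, stood at 12.1, 11.2 and 8.33 CPM in IR_iEV_30d glands, 15.0, 19.7 and 19.0 CPM in IR_30d glands, 9.27, 12.5 and 11.1 CPM in IR_iEV_4d glands, 7.48, 6.52 and 5.87 CPM in IR_4d glands and 4.38, 4.78 and 6.18 CPM in NT glands. Every IR_30d library was above every library of the other groups. Siglec1 rose by 1.80 ± 0.18 (adjusted p = 8.17e-06) in IR_30d against NT glands and by 1.43 ± 0.17 (adjusted p = 0.000107) in IR_30d against IR_4d glands. In IR_4d against NT glands the change was 0.37 ± 0.18 (adjusted p = 0.440) and the groups overlapped. It was 1 of 8 tested resident markers, of which DESeq2 and limma-voom each called 2, the second being the transcription factor gene Maf (0.72 ± 0.19, adjusted p = 0.0540 with edgeR). In IR_4d against NT glands 0 of 8 were called (1 at an unadjusted p under 0.05, and 0 with DESeq2 and limma-voom), with a median of 0.03.

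Lyve1, the hyaluronan receptor of vessel-associated macrophages and of lymphatic endothelium, had a different order. Lyve1 stood at 3.01, 1.79 and 0.966 CPM in IR_iEV_30d glands, 3.44, 5.28 and 5.17 CPM in IR_30d glands, 5.67, 5.70 and 5.26 CPM in IR_iEV_4d glands, 4.88, 5.19 and 4.58 CPM in IR_4d glands and 3.44, 2.64 and 3.01 CPM in NT glands. The 6 day 4 libraries and the 3 IR_30d libraries were all above every NT library, though the lowest IR_30d value (3.444 CPM) barely passed the highest NT value (3.438 CPM). Of the 3 IR_iEV_30d libraries 2 were below every NT library. Against NT, Lyve1 did not pass in IR_4d glands (0.69 ± 0.28, adjusted p = 0.319) or in IR_30d glands (0.61 ± 0.28, adjusted p = 0.276). Timd4, a phosphatidylserine receptor of long-lived resident macrophages, was near the limit of counting, with 35, 13 and 9 counts in IR_iEV_30d glands, 9, 12 and 3 counts in IR_30d glands, 22, 29 and 17 counts in IR_iEV_4d glands, 11, 13 and 22 counts in IR_4d glands and 15, 41 and 16 counts in NT glands. Timd4 values overlapped between IR_30d and NT glands (-1.51 ± 0.70, adjusted p = 0.296). Mrc1, the mannose receptor, was at 21.3 to 26.8 CPM in IR_30d glands and 18.5 to 21.0 CPM in NT glands (0.26 ± 0.31, 95% interval -0.35 to 0.86). Cd163, the haemoglobin scavenger receptor, was at 4.82 to 6.28 CPM in IR_30d glands and 5.27 to 10.7 CPM in NT glands (-0.68 ± 0.27, adjusted p = 0.201). Cd163 was called lower without NT replicate 1 (-0.95, adjusted p = 0.0353) and without the 6 libraries high in sublingual products (-0.97, adjusted p = 0.0153). Folr2, the folate receptor, and Mertk, a receptor for the uptake of dying cells, had log2 changes of 0.98 ± 0.37 and 0.46 ± 0.17 in IR_30d against NT glands, and neither passed (adjusted p = 0.163 and 0.168).

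Among monocyte markers, Ccr2 and Clec7a fell on day 4, and Ccr2 and Ms4a6c rose on day 30. Ccr2 stood at 12.7, 9.48 and 6.38 CPM in IR_iEV_30d glands, 14.5, 13.8 and 10.9 CPM in IR_30d glands, 3.14, 2.35 and 4.04 CPM in IR_iEV_4d glands, 2.99, 2.35 and 2.55 CPM in IR_4d glands and 5.24, 7.07 and 6.82 CPM in NT glands. All IR_4d values were below and all IR_30d values above those of NT glands. Ccr2 fell by 1.28 ± 0.24 on the log2 scale in IR_4d against NT glands (adjusted p = 0.0101) and rose by 1.03 ± 0.23 (adjusted p = 0.0143) in IR_30d against NT glands. The day 4 call was lost without IR_4d replicate 2, IR_4d replicate 3 or NT replicate 3 (adjusted p up to 0.0703), without the 6 libraries high in sublingual products (0.211), with limma-voom (0.0824) and with covariates for sublingual and adipose genes (0.190). The day 30 call was lost without IR_30d replicate 1, IR_30d replicate 2 or NT replicate 1 (adjusted p up to 0.0684). It was also lost without the 6 libraries high in sublingual products (0.131) and without every library above a sublingual level of 2 (0.332). In IR_30d against IR_4d glands the difference was 2.31 ± 0.24 (adjusted p = 2.85e-05), kept in every alternative run. Clec7a, the beta-glucan receptor dectin-1, stood at 4.32, 4.00 and 2.22 CPM in IR_iEV_30d glands, 3.78, 4.04 and 5.19 CPM in IR_30d glands, 1.31, 1.29 and 1.27 CPM in IR_iEV_4d glands, 0.710, 1.12 and 0.629 CPM in IR_4d glands and 2.41, 1.95 and 3.42 CPM in NT glands. Every IR_4d library was below every NT library (-1.66 ± 0.31, adjusted p = 0.00731), and IR_30d values were above NT without passing (0.73 ± 0.28, adjusted p = 0.166). Ms4a6c, a membrane protein gene of monocytes, stood at 6.93, 5.41 and 2.92 CPM in IR_iEV_30d glands, 6.37, 8.35 and 7.24 CPM in IR_30d glands, 3.44, 3.41 and 3.41 CPM in IR_iEV_4d glands, 2.96, 1.57 and 1.29 CPM in IR_4d glands and 2.03, 2.67 and 3.68 CPM in NT glands. Its IR_30d libraries were above all others except those of IR_iEV_30d, and it rose in IR_30d against NT glands (1.38 ± 0.31, adjusted p = 0.0167). That call was lost without IR_30d replicates 2 or 3 or NT replicates 1 or 2 (adjusted p up to 0.0784). The Ms4a6c call was also lost with covariates for sublingual and adipose genes and without the 6 libraries high in sublingual products. Leaving out every library above a sublingual level of 2 lost it too (adjusted p up to 0.302 over these runs).

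Ly6c2 was counted so rarely that its fold changes are uncertain, with 16, 16 and 9 counts in IR_iEV_30d glands, 10, 20 and 11 counts in IR_30d glands, 10, 37 and 7 counts in IR_iEV_4d glands, 3, 0 and 2 counts in IR_4d glands and 1, 9 and 6 counts in NT glands. The highest count was in IR_iEV_4d replicate 2, and the IR_4d libraries held 3 counts at most. Ly6c2 did not pass in IR_30d against NT glands (1.47 ± 0.81, adjusted p = 0.401) or in IR_30d against IR_4d glands (2.80 ± 0.94, adjusted p = 0.0889). DESeq2 called all 4 monocyte markers higher in IR_30d against IR_4d glands, and edgeR called Ccr2, Clec7a and Ms4a6c. Ly6c1, the near copy of Ly6c2 that blood vessels express, held 247 to 593 counts in a library, and how the deposited counts treat reads that match both genes is not given in the sources used here.

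Of the lipid-associated and scavenging genes, Apoe and Ms4a7 rose in IR_30d against NT glands. Apoe, the lipid carrier that macrophages and other cells secrete, stood at 337, 354 and 296 CPM in IR_iEV_30d glands, 309, 412 and 392 CPM in IR_30d glands, 263, 331 and 253 CPM in IR_iEV_4d glands, 234, 253 and 238 CPM in IR_4d glands and 229, 247 and 241 CPM in NT glands. Its IR_30d libraries were above all NT libraries, with a change of 0.63 ± 0.12 (adjusted p = 0.00365). Ms4a7, a membrane protein gene of macrophages, stood at 3.04, 4.77 and 2.37 CPM in IR_iEV_30d glands, 3.26, 3.81 and 4.60 CPM in IR_30d glands, 3.47, 3.12 and 3.02 CPM in IR_iEV_4d glands, 2.60, 2.66 and 2.41 CPM in IR_4d glands and 2.35, 1.54 and 1.96 CPM in NT glands. Ms4a7 was above NT in every IR_30d library (0.99 ± 0.24, adjusted p = 0.0261), a call lost without IR_30d replicates 2 or 3 or NT replicates 2 or 3 (adjusted p up to 0.131). Axl, a receptor for the bridging protein GAS6 on dying cells, stood at 47.3, 42.9 and 43.2 CPM in IR_iEV_30d glands, 54.8, 57.3 and 56.2 CPM in IR_30d glands, 39.7, 42.8 and 46.3 CPM in IR_iEV_4d glands, 41.3, 43.6 and 43.2 CPM in IR_4d glands and 46.0, 47.8 and 53.7 CPM in NT glands. Axl did not pass in IR_30d against NT glands (0.19 ± 0.08, adjusted p = 0.245) and was higher in IR_30d than in IR_4d glands (0.39 ± 0.08, adjusted p = 0.00694), a call lost without the 6 libraries high in sublingual products (adjusted p = 0.198). Trem2, a lipid receptor, had a log2 change of 0.99 ± 0.34 in IR_30d against NT glands without passing (adjusted p = 0.119). Gpnmb and the scavenger receptor Msr1 were at 2.08 CPM or less in every library and were not called in these comparisons.

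**Figure D3:**
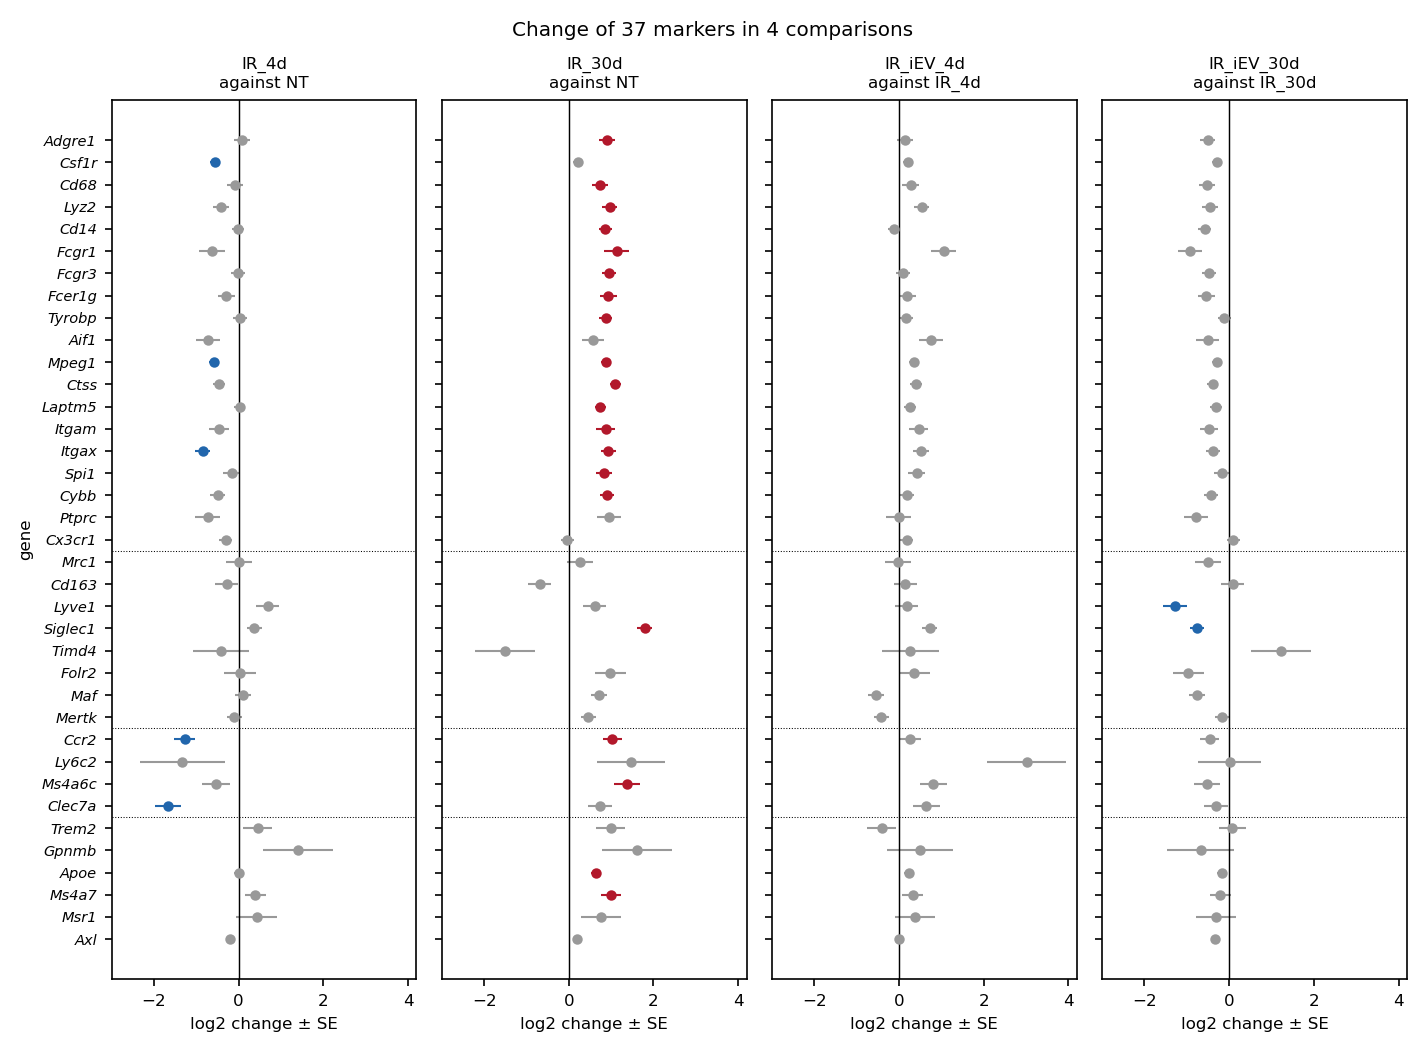
Log2 change (points) and SE (bars) of the 37 tested markers in 4 comparisons, each with the first-named group over the second; red is called higher, blue called lower and grey not passed at an adjusted p of 0.05. IR_30d against NT has 20 red points, IR_4d against NT has 5 blue points, IR_iEV_4d against IR_4d has none of either, and IR_iEV_30d against IR_30d has Siglec1 and Lyve1 in blue.

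Resident and monocyte markers were then set against each other in each library, as the mean log2 CPM of the 8 tested resident genes minus that of the 4 monocyte genes. The difference was 1.21, 1.19 and 1.29 in IR_iEV_30d glands, 1.32, 1.19 and 1.45 in IR_30d glands, 2.32, 2.19 and 2.50 in IR_iEV_4d glands, 2.98, 3.33 and 3.34 in IR_4d glands and 2.26, 2.09 and 1.92 in NT glands. The 2 day 30 groups were below every other library, and IR_4d was above every other library. The mean was 1.23 ± 0.06 in IR_iEV_30d, 1.32 ± 0.13 in IR_30d, 2.33 ± 0.16 in IR_iEV_4d, 3.22 ± 0.21 in IR_4d and 2.09 ± 0.17 in NT glands (SD, n = 3 each). IR_4d minus NT was 1.13 and IR_30d minus NT was -0.77. IR_iEV_4d minus IR_4d was -0.88 with no overlap, and IR_iEV_30d minus IR_30d was -0.09 with overlap. The mean of the monocyte genes was 0.89 to 1.91 in IR_iEV_30d, 1.75 to 2.06 in IR_30d, 0.52 to 0.83 in IR_iEV_4d, -0.50 to 0.00 in IR_4d and 0.30 to 0.97 in NT libraries. That of the resident genes was 2.18 to 3.11 in IR_iEV_30d, 3.07 to 3.25 in IR_30d, 2.95 to 3.02 in IR_iEV_4d, 2.84 to 2.98 in IR_4d and 2.56 to 3.02 in NT libraries. Maf, one of the resident genes, had a mean of 129 CPM in IR_30d and 78.6 CPM in NT glands. Csf1r had means of 46.3 and 39.9 CPM there. The part of duct and other cells in the levels of Maf and Mertk was not tested. Without the rarely counted Ly6c2 in the monocyte list, IR_iEV_4d minus IR_4d was -0.51 and IR_iEV_30d minus IR_30d was 0.03, while IR_4d minus NT was 1.23 and IR_30d minus NT was -0.70. The members were chosen with results known, so these values are a description without a p. With the narrow lists (Timd4, Lyve1 and Folr2 against Ccr2 and Ly6c2) IR_30d minus NT was -1.08. Of these resident genes, the rarely counted Timd4 had a lower mean in IR_30d than in NT glands (0.231 and 0.672 CPM). Lyve1 (4.63 and 3.03 CPM) and Folr2 (3.92 and 1.97 CPM) had higher means. The resident minus monocyte difference was not computed without Timd4.

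**Figure D4:**
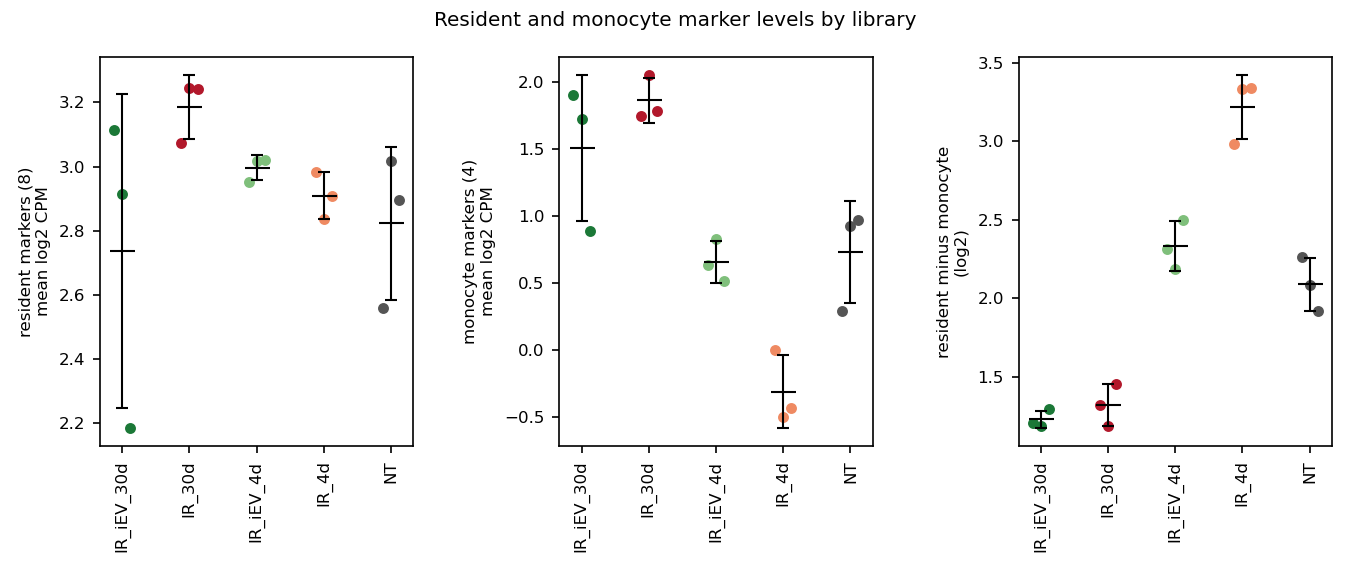
Mean log2 CPM of the 8 resident markers (left), of the 4 monocyte markers (middle) and the difference of both (right) in each library (points), with the group mean and SD (n = 3). The difference lies at 1.19 to 1.45 in the day 30 groups, 2.19 to 2.50 in IR_iEV_4d, 2.98 to 3.34 in IR_4d and 1.92 to 2.26 in NT; the axes do not start at 0.

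With iEVs on day 30, Siglec1 and Lyve1 were lower than after irradiation alone. In IR_iEV_30d against IR_30d glands 2 of 37 markers were called lower, where 0.630% of all genes were, and 0 higher, where 0.168% were (20 markers at an unadjusted p under 0.05, and 5 lower with DESeq2 and 3 with limma-voom). Siglec1 was at 8.33 to 12.1 CPM in IR_iEV_30d glands and 15.0 to 19.7 CPM in IR_30d glands (-0.76 ± 0.17, adjusted p = 0.0416). Lyve1 was at 0.966 to 3.01 CPM in IR_iEV_30d glands and 3.44 to 5.28 CPM in IR_30d glands (-1.28 ± 0.29, adjusted p = 0.0440). Neither gene overlapped between the groups. Both values included IR_iEV_30d replicate 3, and without it they were -0.62 for Siglec1 (adjusted p = 0.210) and -0.94 for Lyve1 (0.156). Without the 6 libraries high in sublingual products the log2 changes were -0.79 for Siglec1 (adjusted p = 0.0544) and -1.21 for Lyve1 (0.203), neither called, and Maf, Cd14 and Adgre1 were called lower instead. The Siglec1 call was lost without any single one of the IR_iEV_30d and IR_4d libraries, IR_30d replicates 2 and 3, IR_iEV_4d replicate 3 and NT replicate 2 (adjusted p up to 0.214). The Lyve1 call was lost without any single one of IR_iEV_30d replicates 2 and 3, IR_30d replicates 2 and 3, IR_iEV_4d replicates 1 and 3, each IR_4d library and NT replicates 2 and 3 (up to 0.199).

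Over all 37 markers the median change with iEVs on day 30 was -0.43, beside -0.01 for all genes, and 14 of 37 were lower in IR_iEV_30d without overlap, against 11.0% of all genes. Duct markers summed to 47902 to 64602 CPM in IR_iEV_30d glands and 91535 to 94469 CPM in IR_30d glands, with 2 of 7 lower, and fibroblast markers to 370 to 539 CPM in IR_iEV_30d glands and 541 to 558 CPM in IR_30d glands, with 0 of 7 called by edgeR (4 at an unadjusted p under 0.05). Their part in the marker values was not tested. Cd14 was at 21.5 to 28.8 CPM in IR_iEV_30d glands and 33.6 to 38.4 CPM in IR_30d glands. Maf was at 61.1 to 104 CPM in IR_iEV_30d glands and 112 to 162 CPM in IR_30d glands. Neither passed with edgeR (Cd14 -0.58 ± 0.14, adjusted p = 0.0719, Maf -0.77 ± 0.19, adjusted p = 0.101), and DESeq2 called both lower, together with Axl. Of the monocyte markers 0 of 4 were called by edgeR (0 at an unadjusted p under 0.05), DESeq2 or limma-voom, and Ccr2 had -0.46 ± 0.22 (adjusted p = 0.414). Lymphatic endothelial markers, which bear on Lyve1, had a summed level of 21.6 to 23.5 CPM in IR_iEV_30d glands and 19.6 to 26.2 CPM in IR_30d glands; 0 of 7 were called with edgeR (0 at an unadjusted p under 0.05), and their median change was 0.00.

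On day 4, no marker passed with iEVs. In IR_iEV_4d against IR_4d glands edgeR called 0 of 37 markers and 0.0312% of all genes, with 12 markers at an unadjusted p under 0.05; DESeq2 called 1, Siglec1, and limma-voom called 0. Siglec1 was at 9.27 to 12.5 CPM in IR_iEV_4d glands and 5.87 to 7.48 CPM in IR_4d glands (0.73 ± 0.17, adjusted p = 0.358). The median of the 37 was 0.27, and 16 were above IR_4d without overlap, against 7.31% of all genes. The difference between the days was tested as an interaction, the change with iEVs on day 30 minus that on day 4. Injections were weekly from day 1, so day and number of injections cannot be told apart in it. The interaction was called for 1 of 37 markers and for 0.125% of all genes. That marker was Siglec1 (-1.49 ± 0.24, adjusted p = 0.0132), whose call was lost without IR_30d replicate 2, IR_30d replicate 3 or IR_4d replicate 3 (adjusted p up to 0.0662), and without the 6 libraries high in sublingual products or with sublingual and adipose levels as covariates (up to 0.392).

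Against NT, few markers were called in the glands with iEVs. In IR_iEV_30d against NT glands 4 of 37 were higher, where 0.655% of all genes were, and 0 lower, where 0.449% were. The 4 were Siglec1 (1.03 ± 0.17, adjusted p = 0.00412), Ctss (0.72 ± 0.13), Tyrobp (0.76 ± 0.15) and Mpeg1 (0.59 ± 0.12). The count was 1 without NT replicate 1, 2 without NT replicate 2 and 0 without the 6 libraries high in sublingual products. In IR_iEV_4d against NT glands 2 of 37 were called. Siglec1 was higher, as were 1.35% of all genes (1.09 ± 0.17, adjusted p = 0.00176), and Ccr2 was lower, as were 0.960% of all genes (-1.01 ± 0.24, adjusted p = 0.0336). The count was 6 without IR_iEV_30d replicate 3. The Ccr2 call was lost without IR_iEV_4d replicates 1 or 2 or NT replicates 2 or 3 (adjusted p up to 0.139). It was also lost with limma-voom, only the groups compared, the replicate number as a block, or covariates for sublingual and adipose genes. Siglec1 lost its call with these covariates. Without the 6 libraries high in sublingual products the Ccr2 and Siglec1 calls were lost (log2 change of Siglec1 0.72, with 1 IR_iEV_4d library left). Between the days with iEVs, IR_iEV_30d against IR_iEV_4d, 8 markers were higher (4.32% of all genes) and 1, Lyve1, was lower (-1.53 ± 0.28, adjusted p = 0.00400; 3.95% of all genes). Ccr2 was among the 8 (1.58 ± 0.24, adjusted p = 0.00124). All 9 calls were lost without the 6 libraries high in sublingual products, where 1 IR_iEV_4d library remains and the changes were 1.62 for Ccr2 and -1.50 for Lyve1.

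Further macrophage genes that are not among the 39 were counted in the same edgeR fit to all 15 libraries. Calls of genes outside the 39 were not checked in the alternative runs. Of 31 tested, 13 rose and 0 fell in IR_30d against NT glands, where 3.19% of all genes rose and 1.29% fell, and their median was 0.43. The 3 chains of complement C1q, which macrophages make, were among them: C1qb was at 36.3 to 47.6 CPM in IR_30d glands and 20.2 to 23.7 CPM in NT glands (0.97 ± 0.12, adjusted p = 9.78e-05), and C1qa and C1qc rose by 1.01 ± 0.13 and 0.93 ± 0.13. The interaction was called for C1qa (-1.04 ± 0.18, adjusted p = 0.0163) and C1qb (-0.98 ± 0.17), and for 0.125% of all genes. In IR_4d against NT glands, where 0.835% of all genes rose, 1 of 31 did, Gas6 (0.55 ± 0.11, adjusted p = 0.0147), the ligand of AXL and MERTK.

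Of 12 further monocyte genes tested, 1 fell in IR_4d against NT glands, Ear2 (-3.48 ± 0.56, adjusted p = 0.00204), a ribonuclease gene of nonclassical monocytes and eosinophils, where 0.561% of all genes fell. Plac8 and Ms4a4c rose in IR_30d against NT glands (1.61 ± 0.33 and 2.42 ± 0.55). Of 18 growth factors, chemokines and receptors, 2 rose in IR_30d against NT glands, where 3.19% of all genes did, the chemokine gene Ccl8 (3.42 ± 0.61, adjusted p = 0.00304) and the receptor gene Csf3r (1.87 ± 0.43). In IR_30d against IR_4d glands Il34 (0.66 ± 0.15), which encodes a ligand of CSF1R, and Csf2rb (1.54 ± 0.29), a cytokine receptor subunit gene, rose. Of 14 activation products, Retnla fell by 2.72 ± 0.33 on the log2 scale in IR_4d against NT glands, where 0.561% of all genes fell. Retnla rose by 1.26 ± 0.27 in IR_30d against NT glands, where 3.19% of all genes rose. Results of the other genes of this list are not reported here. Retnla encodes a secreted product of alternatively activated macrophages and of other cells.

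Some markers of other leukocytes also fell on day 4. Their calls come from the edgeR fit to all 15 libraries and were not checked with libraries left out or with covariates. Of 9 tested dendritic cell markers 1 was lower in IR_4d against NT glands, the integrin gene Itgae (-2.58 ± 0.52, adjusted p = 0.0138), where 0.561% of all genes were lower, and 8 of 9 were below NT without overlap, against 9.31% of all genes. Their summed level was 29.4 to 31.7 CPM in IR_4d glands and 34.3 to 50.4 CPM in NT glands, and Ccr7 was at 0 in all 3 IR_4d libraries. Of 7 tested T and NK cell markers 2 were lower, Il2rb (-1.21 ± 0.23) and Lck (-2.14 ± 0.45), and 4 of 7 were below NT without overlap. Their sum was 3.78 to 5.55 CPM in IR_4d glands and 8.85 to 12.6 CPM in NT glands. Dendritic cells also express Itgax and Ccr2, and all leukocytes express Ptprc. The part of these cells in the marker values was not tested. In IR_30d against NT glands 0 of 9 dendritic and 0 of 7 T and NK cell markers were called with edgeR (3 and 0 at an unadjusted p under 0.05), with medians of 0.32 and 0.20. In IR_30d against IR_4d glands 5 of 9 dendritic and 3 of 7 T and NK cell markers were higher, against 4.81% of all genes, with sums of 46.1 to 54.3 and 12.1 to 12.7 CPM in IR_30d glands.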

How the data were processed

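Libraries were made with a strand-specific kit, per the labels' protocols, and the submitters' processing notes name TopHat, HTSeq, DESeq2 and build GRCm39 with no versions. How strand and reads matching several genes were treated, and which annotation was used, are not given in the sources used here. The authors deposited raw whole-number counts for each gene symbol and library, 29082798 to 52201098 in all per library, so depth sets the precision of rare genes such as Ly6c2 and Timd4. From these, edgeR 4.0.16 in R 4.3.3 gave CPM on TMM-scaled library sizes and, after filterByExpr (minimum count 10, minimum total 15), the quasi-likelihood test, fitted once to all 15 libraries (10 residual degrees of freedom). P-values were adjusted over 16042 genes (Benjamini-Hochberg, 0.05). Log2 CPM used a prior count of 2, and levels per kilobase used the exonic length of GENCODE vM21. DESeq2 1.42.0, limma-voom (limma 3.58.1), other scalings and filters, covariates and left-out libraries were alternatives. Groups came from the sample labels, and no 2 libraries of a group agreed within sampling noise. The markers and lists were chosen with earlier results of these data known. Values in every library are given for called markers, at most 5 per class by lowest p, and for Ccr2, Ly6c2, Timd4, Lyve1, Csf1r and Adgre1; of each other list at most 4 called genes per comparison are named. Others were named after their values were seen, and results of some genes of these lists are not reported here. Identity of the proteins of near copies was not analysed here.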

Additional observations from a re-analysis of the deposited data

Results flagged for a closer look

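Siglec1 was singled out because its change with iEVs differed between the days in a test of the difference itself. On day 30 its log2 change in IR_iEV_30d against IR_30d glands was -0.76 ± 0.17, and on day 4 it was 0.73 ± 0.17 in IR_iEV_4d against IR_4d glands (SE, n = 3 each). The difference of the 2 changes was -1.49 ± 0.24 (edgeR, adjusted p = 0.0132). Day and number of weekly injections cannot be told apart in this difference. The IR_iEV_30d libraries were below all IR_30d libraries and the IR_iEV_4d libraries above all IR_4d libraries. The call was lost without IR_30d replicate 2, IR_30d replicate 3 or IR_4d replicate 3, and without the 6 libraries high in sublingual products, where the difference was -1.43 (adjusted p = 0.392). DESeq2 called the difference for 5 of 37 markers and limma-voom for 1.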

How the results depend on the processing

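Under DESeq2 size factors or upper quartile scaling the 5 counts of called markers stayed at 5, 20, 0, 2 and 24 (IR_4d against NT, IR_30d against NT, IR_iEV_4d against IR_4d, IR_iEV_30d against IR_30d, IR_30d against IR_4d). In IR_4d against NT glands the count was 1 with limma-voom, 0 without the 6 libraries high in sublingual products and 1 with the levels of sublingual and adipose genes as covariates. Leaving those 6 out is an alternative chosen after seeing the data because the planned level of 2 left no day 4 library. In IR_30d against NT glands it was 7 at that planned level, where 6 libraries remain. In IR_iEV_4d against IR_4d glands it was 1 with DESeq2. In IR_iEV_30d against IR_30d glands it was 5 with DESeq2, 1 with a mean of at least 5 CPM, and 0 with only the groups compared, with the replicate number as a block and with the covariates. The cause was not tested. Leaving out 1 library gave 0 to 6, 12 to 21, 0 to 0, 0 to 3 and 22 to 25 in the same order. Without IR_iEV_30d replicate 3, IR_30d replicate 2 or 3, IR_iEV_4d replicate 3, any IR_4d library or NT replicate 2 the count in IR_iEV_30d against IR_30d glands was 0; without IR_4d replicates 2 and 3, each in turn, that in IR_4d against NT glands was 2 and 1. The resident minus monocyte difference moved to 1.33 in IR_4d against NT glands without those 6 libraries, to -1.08, -0.20 and -2.25 with the narrow lists in IR_30d against NT, IR_iEV_30d against IR_30d and IR_30d against IR_4d glands, and to -1.10 and -2.16 with a prior count of 0.5 in IR_iEV_4d against IR_4d and IR_30d against IR_4d glands. Without Ly6c2, left out after seeing its counts, it was -0.51 in IR_iEV_4d against IR_4d and 0.0295 in IR_iEV_30d against IR_30d glands. Leaving out 1 library it was 1.04 to 1.25, -0.85 to -0.68, -1.0045 to -0.81, -0.16 to -0.03 and -2.02 to -1.83 over the 5 comparisons. Over all genes, 224 calls in IR_4d against NT glands became 480 with DESeq2 and 81 with the covariates, and 128 in IR_iEV_30d against IR_30d glands became 408 and 29. Same-numbered libraries did not deviate together (correlation above 0.1 in 5 of 30 pairs, -0.292 to 0.188). That gives no sign that the numbers pair them, but cannot exclude it with libraries that differ this much within groups. With the replicate block the counts were 5, 19, 0, 0 and 24. No marker call reversed in any of these alternatives.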

Other observations

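Near copies of 2 markers were counted beside them. Lyz1, the intestinal copy of Lyz2, held 68, 95 and 66 counts in IR_iEV_30d glands, 150, 156 and 120 counts in IR_30d glands, 22, 71 and 33 counts in IR_iEV_4d glands, 25, 15 and 11 counts in IR_4d glands and 68, 60 and 100 counts in NT glands. Lyz1 was lower in IR_4d than in NT glands (-1.83 ± 0.36, edgeR adjusted p = 0.0122), while Lyz2 was not called there. The Lyz1 call was not checked in the alternative runs. Ly6c1 held 373, 330 and 404 counts in IR_iEV_30d glands, 280, 339 and 386 counts in IR_30d glands, 410, 593 and 426 counts in IR_iEV_4d glands, 270, 283 and 247 counts in IR_4d glands and 323, 278 and 394 counts in NT glands. Its highest library, IR_iEV_4d replicate 2, was also the highest for Ly6c2 (37 counts), Gpnmb (92 counts) and Marco (11 counts). The same library had the highest summed level of adipose markers (349 CPM, against 9.83 to 153 CPM in the other libraries) and of muscle markers (48.9 CPM, against 1.75 to 4.94 CPM), and the part of these tissues in its marker values was not tested.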
